A study of Mus musculus with 39 samples.

Results

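The response to 2 hours of reduced oxygen was set side by side in liver and bone marrow of B6C3F1 mice, the first-generation cross of C57BL/6 with C3H. The arrays were chosen by their tissue and treatment labels alone and made up 23 of the 39 arrays of the study. They came from 8 livers under hypoxia and 8 under vehicle, and from 4 bone marrows under hypoxia and 3 under vehicle. Vehicle is the name the titles give to the control group; no substance is named, and whether the hypoxia group received it is not given in the sources used here. Liver was a piece of the left lateral lobe, bone marrow came from the right humerus, and all mice were killed under ketamine and acepromazine anaesthesia. The oxygen level and the age of the mice are likewise not given in the sources used here. Nor do the labels say whether arrays of 1 group, or liver and marrow of the same number, came from separate mice. The p-values therefore measure only the spread between these samples, which may be technical.

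Cells sense low oxygen mainly through the hypoxia-inducible factors (HIF), transcription factors whose alpha subunits are degraded while oxygen is plentiful and which bind short ACGTG or GCGTG cores when it is scarce. An animal breathing too little oxygen also releases adrenal glucocorticoids, which act on nearly every tissue through the glucocorticoid receptor, and both signals induce stress genes that slow growth and reset fuel use. Liver is built mainly of hepatocytes, which respond to oxygen, hormones and nutrients, while bone marrow is a mixture of developing blood cells with stromal and endothelial cells. In such bulk tissue, fewer cells of a type and less RNA per cell cannot be told apart.

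The tissues matched their labels. The summed intensity of 16 hepatocyte marker genes was 323000 to 348000 in hypoxic and 330000 to 341000 in vehicle livers, against 551 to 621 in hypoxic and 530 to 570 in vehicle marrows. Arrays of a group correlated across genes at 0.983 to 0.998, and no pair held identical values. Of 18193 genes, 11348 were measured above a dim cutoff in both tissues and were tested. Every value below is a log2 intensity and every change or difference is on the log2 scale, with its standard error. For 1 gene, the liver change minus the bone marrow change is called the difference, so that a positive difference means a higher change in liver. A change or difference was called at an adjusted p under 0.05 (limma).

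The change under hypoxia differed between the tissues for 302 genes, 2.66% of those tested. It was higher in liver for 140 genes (1.23%) and lower in liver for 162 (1.43%), and 91 of the 302 differed by at least 1. Within the tissues, 1850 genes passed in liver (16.3%), with 633 higher (5.58%) and 1217 lower (10.7%). Bone marrow had 231 called genes (2.04%), with 97 higher (0.855%) and 134 lower (1.18%). The gap between the tissues depended on the model of the spread, which was pooled over the tissues although the median residual SD was 0.194 in liver and 0.101 in marrow. With array weights that let the tissues differ in spread, 1395 genes passed in liver and 1386 in marrow, and 844 differences were called. Quantile normalization of all 23 arrays gave 2204 liver calls, 413 marrow calls and 513 differences. The fewer marrow arrays gave a wider median standard error, 0.134 against 0.088 in liver. The difference itself had a median standard error of 0.161, so small differences were mostly not detectable with these arrays. Leaving out any of 4 of the marrow arrays cut the count of differences by over 1.5 times, to 142 without vehicle replicate 1, 180 without vehicle replicate 2, 177 without hypoxia replicate 3 and 201 without hypoxia replicate 4. With the replicate number as a block the count was 470, with 226 higher and 244 lower. The livers fell into 2 sets by number, since the 30th percentile of log2 intensity was 4.16 to 4.23 on the arrays numbered 1 to 4 and 4.28 to 4.31 on those numbered 5 to 8. The count was 708 with that set as a term, 514 with the first set alone and 869 with the second. In each of these 3 fits every one of the 302 genes that was tested kept the sign of its difference.

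With the pooled spread, most of the 302 genes had moved in liver. For 204 of them the liver change passed and the marrow change did not, with 97 higher in liver and 107 lower. Another 55 passed in marrow alone, of which 31 had risen there and 24 had fallen. Both tissues passed for 14 genes, 7 in opposite directions and 7 in the same direction with a different size. The remaining 29 passed in neither tissue on its own. With array weights per tissue the same 302 genes split differently, with 148 passing in liver alone, 97 in marrow alone, 39 in both with opposite directions, 17 in both with the same direction and 1 in neither. Among the genes described below, the weights added a marrow call for Cebpd, Jun, Slc38a2, Bmf, Trp53inp1, Tob2, Usp18, Irf1, Ankrd37, Bcl3, Birc3, Egr1, Egln3, Pdk1, Pfkm, Hsp90b1 and Angptl4, and ended the liver call of Fxyd1 and Hmox1. With the pooled spread, and apart from the 302, 95 genes changed the same way in both tissues with no called difference, 38 upward and 57 downward.

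**Figure D1:**
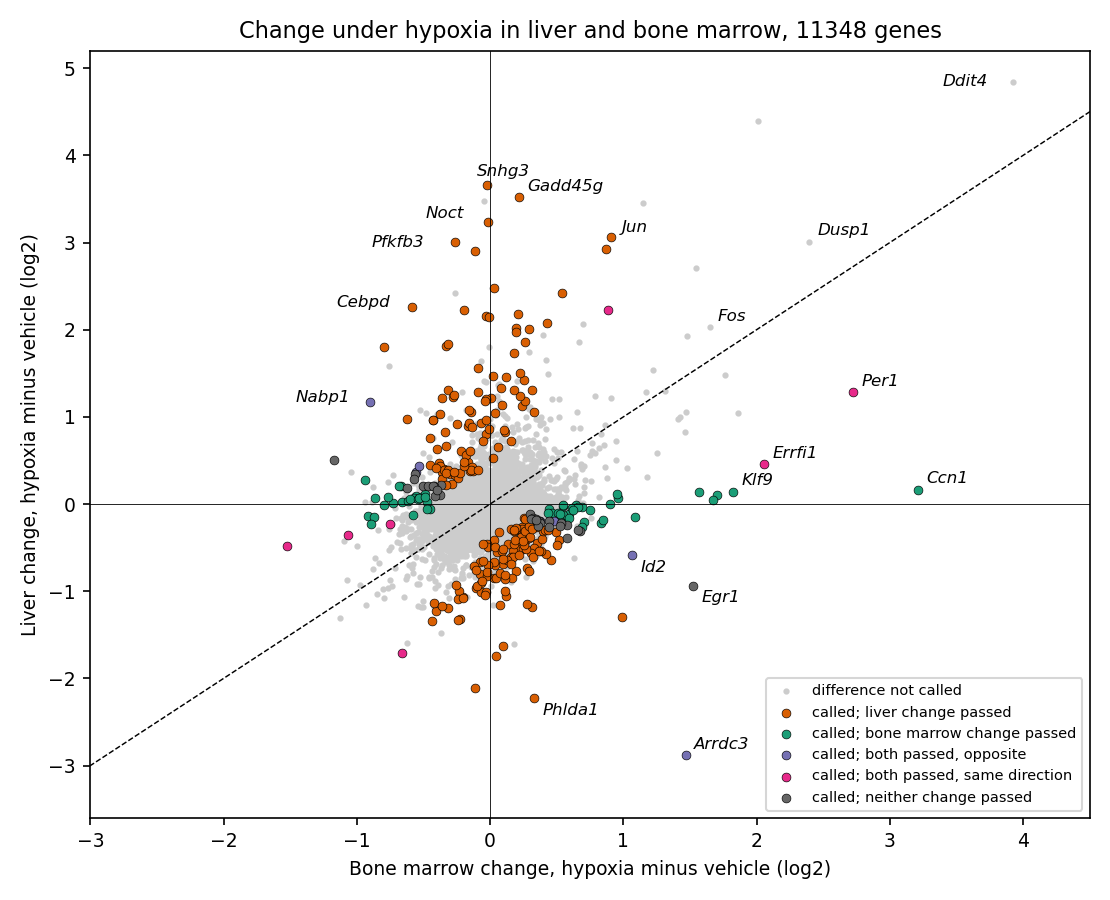
Change under hypoxia in liver (vertical axis) against the change in bone marrow (horizontal axis), both as log2 hypoxia minus vehicle, for 11348 genes, with 1 point per gene. The dashed line marks equal changes. Coloured points are the 302 genes with a called difference, most of which lie along the vertical axis (204 passed in liver alone), while Ccn1 and Klf9 lie along the horizontal axis, Arrdc3 and Id2 at lower right and Nabp1 at upper left.

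Promoters are shown for 1 gene of each pattern: Ddit4 rose in both tissues, Per1 rose more in marrow, Pfkfb3 rose in liver, Ccn1 rose in marrow, and Arrdc3 moved in opposite directions. Sequences run 5′ to 3′ from 250 bases before to 50 bases after the start, from RefSeq on GRCm38.p6, and capitals mark ACGTG and GCGTG (the core of hypoxia response elements) on either strand. Per1 and Pfkfb3 have 2 starts each and Arrdc3 has 3. For such genes a window with the most ACGTG and GCGTG matches was picked for display, so its matches do not stand for all starts of the gene. Another Arrdc3 window has as many matches, with 1 ACGTG and 1 GCGTG, and the window of lower coordinate is shown. The palindrome CACGTG, an E-box, contains ACGTG on both strands, so these matches overlap and counted as 2 in that choice. The windows lie at chr10:59951721-59952020 on the minus strand for Ddit4, chr11:69098699-69098998 on the plus strand for Per1, chr2:11502041-11502340 on the minus strand for Pfkfb3, chr3:145649936-145650235 on the minus strand for Ccn1, and chr13:80883172-80883471 on the plus strand for Arrdc3.
Ddit4: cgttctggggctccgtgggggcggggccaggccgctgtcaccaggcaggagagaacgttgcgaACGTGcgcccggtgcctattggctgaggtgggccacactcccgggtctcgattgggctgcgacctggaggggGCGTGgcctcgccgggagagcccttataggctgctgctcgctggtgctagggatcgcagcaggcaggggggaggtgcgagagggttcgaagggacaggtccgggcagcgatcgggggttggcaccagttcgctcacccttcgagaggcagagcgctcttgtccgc
Per1: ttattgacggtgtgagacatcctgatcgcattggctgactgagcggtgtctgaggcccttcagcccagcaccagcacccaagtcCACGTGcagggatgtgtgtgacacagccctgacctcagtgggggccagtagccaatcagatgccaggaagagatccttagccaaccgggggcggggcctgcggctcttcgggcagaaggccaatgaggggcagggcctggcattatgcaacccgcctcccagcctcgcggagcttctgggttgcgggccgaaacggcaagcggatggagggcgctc
Pfkfb3: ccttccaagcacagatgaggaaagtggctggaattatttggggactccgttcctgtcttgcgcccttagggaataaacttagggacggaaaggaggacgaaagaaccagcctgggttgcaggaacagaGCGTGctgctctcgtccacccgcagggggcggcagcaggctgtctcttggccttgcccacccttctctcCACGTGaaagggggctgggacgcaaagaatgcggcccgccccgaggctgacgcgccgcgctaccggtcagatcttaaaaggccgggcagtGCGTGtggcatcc
Ccn1: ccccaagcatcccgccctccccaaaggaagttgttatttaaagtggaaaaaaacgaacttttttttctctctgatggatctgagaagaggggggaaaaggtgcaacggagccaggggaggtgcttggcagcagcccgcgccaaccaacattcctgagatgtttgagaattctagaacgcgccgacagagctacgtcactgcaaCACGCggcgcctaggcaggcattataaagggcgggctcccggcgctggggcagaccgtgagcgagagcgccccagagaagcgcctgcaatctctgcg
Arrdc3: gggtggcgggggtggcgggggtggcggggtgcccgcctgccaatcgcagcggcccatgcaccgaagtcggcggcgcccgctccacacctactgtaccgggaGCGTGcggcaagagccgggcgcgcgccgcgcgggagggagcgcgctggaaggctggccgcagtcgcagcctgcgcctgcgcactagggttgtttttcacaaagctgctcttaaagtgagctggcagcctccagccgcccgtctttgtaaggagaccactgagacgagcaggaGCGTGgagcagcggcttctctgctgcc

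Among all 27025 genes with a promoter in the table, 21.8% had ACGTG, 35.2% had GCGTG and 8.09% had CACGTG in at least 1 window. Of the 11348 genes tested, 9186 had a window, of which 29.0% held ACGTG, 55.3% held GCGTG and 11.8% held CACGTG. The ACGTG core was found for 33.0% of the 112 matched genes whose difference was higher in liver and for 33.9% of the 124 whose difference was lower. For GCGTG these shares were 66.1% and 48.4%. A gene with several windows counted if any of them held the core, so more windows raise its chance. Counted per window, ACGTG stood in 27.1% and 26.5%, against 25.1% for all genes tested. GCGTG stood in 55.5% and 39.8% of windows, against 49.5%. Of the 35 matched genes called higher in both tissues, 54.3% held ACGTG and 31.4% held CACGTG. Per window these were 45.7% and 23.9%, against 25.1% and 9.91% for all genes tested. These shares are counts of letters in a window, with no test, and do not show that a factor binds there.

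Several stress genes rose steeply in both tissues. Ddit4, an inhibitor of the growth kinase complex mTORC1 that both hypoxia and glucocorticoids induce, had 10.71, 11.60 and 12.09 as lowest, median and highest value in hypoxic livers, against 5.78, 6.76 and 7.21 in vehicle livers. In bone marrow its values were 11.12, 11.02, 11.34 and 11.15 under hypoxia and 7.34, 7.13 and 7.22 under vehicle. Hypoxia and vehicle arrays did not overlap in either tissue, which held for 2.9% of all genes tested in liver and 19.7% in marrow. The rise was 4.84 ± 0.18 in liver and 3.93 ± 0.28 in marrow, 28.7-fold and 15.2-fold. The difference of 0.91 ± 0.33 did not pass (adjusted p = 0.168), but it did with the replicate number as a block (0.91, adjusted p = 0.0234), with array weights per tissue (0.0237), with the liver set as a term (0.0278) and with liver replicates 5 to 8 alone (0.0055).

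Dusp1, a phosphatase that switches off MAP kinases, lay between 11.53 and 11.94 in hypoxic livers (median 11.64), against 8.08 to 9.16 in vehicle livers (median 8.66). The 4 hypoxic marrows lay between 11.98 and 12.22, and the vehicle marrows were at 9.49, 9.75 and 9.88, again without overlap. It rose by 3.01 ± 0.13 in liver and 2.39 ± 0.19 in marrow, and the difference was 0.62 ± 0.23 (adjusted p = 0.176), which was called with array weights per tissue alone among the alternatives (adjusted p = 0.0358). Fos, the AP-1 transcription factor, rose by 2.03 ± 0.15 and 1.65 ± 0.23, with a difference of 0.38 ± 0.28. For Fkbp5, a chaperone of the glucocorticoid receptor, the rises were 1.29 ± 0.17 and 1.17 ± 0.25, and the difference was 0.12 ± 0.30. Ppp1r3c, which targets a phosphatase to glycogen, rose by 1.93 ± 0.16 in liver and 1.47 ± 0.25 in marrow. Its dimmer probe set changed by 2.28 in liver and 0.27 in marrow, and over the mean of both the difference was 1.23 and called (adjusted p = 0.0389), against 0.45 otherwise. The lipogenic regulator Thrsp rose by 1.54 ± 0.20 and 1.23 ± 0.30 with its probe set of highest mean. The vehicle marrows of that probe set, at 4.94 to 5.11, lay under the marrow dim cutoff of 5.58. Another probe set of Thrsp changed by 1.84 in liver and 0.41 in marrow. The remaining probe set, brightest in marrow at a mean of 6.86, changed by 0.85 in liver and -0.08 in marrow. Its difference was 0.93 ± 0.14, so the marrow rise of Thrsp depended on the probe set. H3f3b, a gene for histone H3.3, rose by 1.48 ± 0.13 and 1.76 ± 0.19. One of the shared falls was that of Sox18, a transcription factor of endothelial cells, at -1.30 ± 0.13 in liver and -1.13 ± 0.20 in marrow. Apart from the alternatives named for Dusp1 and Ppp1r3c, none of these 7 further genes had a called difference, which does not show that the tissues changed alike.

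The named genes with the largest positive differences rose in liver with no called change in marrow under the pooled spread. Snhg3, a host transcript of small nucleolar RNAs, had the highest difference of all named genes. Its lowest, median and highest values were 8.79, 9.47 and 9.63 in hypoxic livers, against 5.49, 5.72 and 6.29 in vehicle livers. Marrows held 8.00, 8.03, 7.97 and 8.12 under hypoxia and 8.4, 7.92 and 7.82 under vehicle, so that the marrow groups overlapped while the liver groups stood apart. Snhg3 rose 12.7-fold in liver, by 3.66 ± 0.12, and the marrow change was -0.02 ± 0.18. The difference was 3.69 ± 0.22 (adjusted p = 3.3e-11).

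Pfkfb3, which makes the activator of the glycolytic enzyme phosphofructokinase, showed the same separation. Its hypoxic livers lay between 7.85 and 9.97 (median 8.80) and its vehicle livers between 5.16 and 6.51 (median 5.64). Its marrow values were 7.87, 7.82, 7.74 and 7.99 under hypoxia, against 8.30, 7.96 and 8.09 under vehicle, and overlapped. The liver rise of 3.00 ± 0.22 stood against -0.26 ± 0.34 in marrow, a difference of 3.26 ± 0.41 (adjusted p = 1.9e-05). A dimmer Pfkfb3 probe set changed by 1.47 in liver and 0.11 in marrow, a smaller difference of 1.36 ± 0.38.

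Gadd45g and Btg2, which restrain cell division, rose in liver by 3.52 ± 0.21 and 2.90 ± 0.22, and their marrow changes were 0.21 ± 0.32 and -0.12 ± 0.33. Noct, a circadian gene of the deadenylase family, rose by 3.24 ± 0.24 in liver against -0.02 ± 0.37 in marrow. Tcim, a small regulator of Wnt signalling, rose by 2.47 ± 0.13 in liver and changed by 0.03 ± 0.20 in marrow. The early stress gene Ier3 rose by 2.15 ± 0.20, against -0.03 ± 0.31. For these 5 genes the liver groups did not overlap, which held for 2.9% of all genes tested. Their marrow groups did overlap, while those of 19.7% of all genes did not. The difference was called for each, from 2.18 ± 0.37 for Ier3 to 3.31 ± 0.39 for Gadd45g.

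Tfrc, the transferrin receptor that brings iron into cells, was 10.25 to 10.96 in hypoxic livers (median 10.78), against 8.02 to 8.94 in vehicle livers (median 8.41). In marrow it was 12.65, 12.69, 12.71 and 12.75 under hypoxia and 12.74, 13.04 and 12.91 under vehicle. The liver rise was 2.22 ± 0.13, the marrow change -0.19 ± 0.20 and the difference 2.42 ± 0.24 (adjusted p = 2.9e-07). Alas1, the first enzyme of heme synthesis in liver, rose by 1.80 ± 0.30 in liver with overlapping arrays, and its marrow change was -0.80 ± 0.46. Its difference of 2.60 ± 0.55 passed (adjusted p = 0.00881), but without marrow vehicle replicate 1 it was 2.38 and did not (adjusted p = 0.0535).

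Cebpd, a transcription factor of the acute phase response, had hypoxic livers at 8.31 to 9.01 (median 8.56) and vehicle livers at 5.63 to 6.80 (median 6.35). Its marrow values were 10.54, 10.55, 10.31 and 10.59 under hypoxia, all below the 11.23, 10.93 and 11.09 of vehicle. The rise of 2.26 ± 0.13 in liver was called and the marrow change of -0.59 ± 0.20 was not (adjusted p = 0.156), while the difference of 2.85 ± 0.24 was (adjusted p = 3.9e-08). Averaged over its probe sets the difference was 1.60. Slc38a2, a transporter of neutral amino acids, rose by 1.84 ± 0.11 in liver against -0.32 ± 0.16 in marrow, with a difference of 2.15 ± 0.19 that was 1.42 over the mean of its probe sets. Jun, another AP-1 factor, rose by 3.07 ± 0.21 in liver. Its marrow arrays also stood apart, at 8.45, 8.05, 8.24 and 8.17 under hypoxia and 7.41, 7.22 and 7.33 under vehicle, but the marrow change of 0.91 ± 0.32 was not called (adjusted p = 0.202) and was lower than that of liver by 2.16 ± 0.39.

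Bone marrow had rises of its own. Ccn1, a secreted matrix protein and immediate early gene, had 10.36, 9.94, 10.28 and 9.85 in hypoxic marrows, against 7.28, 7.12 and 6.29 in vehicle marrows. In liver it lay between 6.15 and 7.12 under hypoxia (median 6.53) and between 6.10 and 6.80 under vehicle (median 6.35). The marrow groups stood far apart and the liver groups overlapped. It rose 9.25-fold in marrow, by 3.21 ± 0.23, against 0.17 ± 0.15 in liver, a difference of -3.04 ± 0.27 (adjusted p = 8e-08).

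Klf9, a zinc finger factor induced by glucocorticoids, was 11.32, 11.42, 11.31 and 11.34 in hypoxic marrows and 9.70, 9.37 and 9.49 in vehicle marrows. Its livers overlapped, at 12.02 to 13.16 under hypoxia (median 12.37) and 12.01 to 13.01 under vehicle (median 12.19). The marrow rise was 1.82 ± 0.23, the liver change 0.14 ± 0.15 and the difference -1.68 ± 0.28 (adjusted p = 0.00076), or -1.04 over the mean of its probe sets. Pik3ip1, an inhibitor of phosphatidylinositol 3-kinase, was 9.23, 9.33, 9.33 and 8.81 in hypoxic marrows and 7.39, 7.36 and 7.68 in vehicle marrows, a rise of 1.70 ± 0.12. Its livers, at 4.94 to 5.25 under hypoxia and 4.80 to 5.18 under vehicle, were close to the liver dim cutoff of 4.9 and overlapped. The liver change was 0.11 ± 0.08.

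Zbtb16, a zinc finger repressor, rose by 1.67 ± 0.28 in marrow against 0.04 ± 0.18 in liver, and its difference of -1.63 ± 0.34 was not called with liver replicates 1 to 4 alone (adjusted p = 0.0597). Tsc22d3, which encodes the anti-inflammatory protein GILZ, rose by 1.57 ± 0.30 in marrow, and its liver change was 0.14 ± 0.19. The Tsc22d3 difference of -1.43 ± 0.35 was called (adjusted p = 0.0257), but lost the call without marrow vehicle replicate 1 (adjusted p = 0.0902) or 2 (0.0785), without marrow hypoxia replicate 3 (0.0684) or 4 (0.0606), and over the mean of its probe sets, where it was -0.76. Abhd15 rose by 1.09 ± 0.20, Pmp22, a membrane protein of peripheral myelin, by 0.96 ± 0.13, and the sulfotransferase Sult1a1 by 0.95 ± 0.14. In all 3 the marrow arrays stood apart, as they did for 19.7% of all genes tested. The liver arrays of all 3 overlapped, and stood apart for only 2.9% of all genes. The Abhd15 difference of -1.24 ± 0.24 was -0.65 over the mean of its probe sets and was then not called (adjusted p = 0.0665). That of Sult1a1, -0.83 ± 0.17, was not called in a fit of all 39 arrays (adjusted p = 0.0662) or with liver replicates 1 to 4 alone (adjusted p = 0.0554).

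The summed intensity of 15 stromal cell markers also differed between the marrow groups, at 62900 to 73100 under hypoxia and 53100 to 59300 under vehicle. Of the 13 tested stromal markers, 2 rose in marrow (0.855% of all genes did) and none was called in liver (5.58% of all genes rose and 10.7% fell there). Among them Dcn, a matrix proteoglycan, had a called difference of -0.70 ± 0.15. Summed B cell markers were 24353 to 28359 in hypoxic marrows. Vehicle marrows held 17396, 24281 and 24272, so that replicate 1 alone lay far below. None of the 8 tested B cell markers was called in marrow (2.04% of all genes were). Whether stromal or B cells had a part in the marrow rises was not tested.

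**Figure D2:**
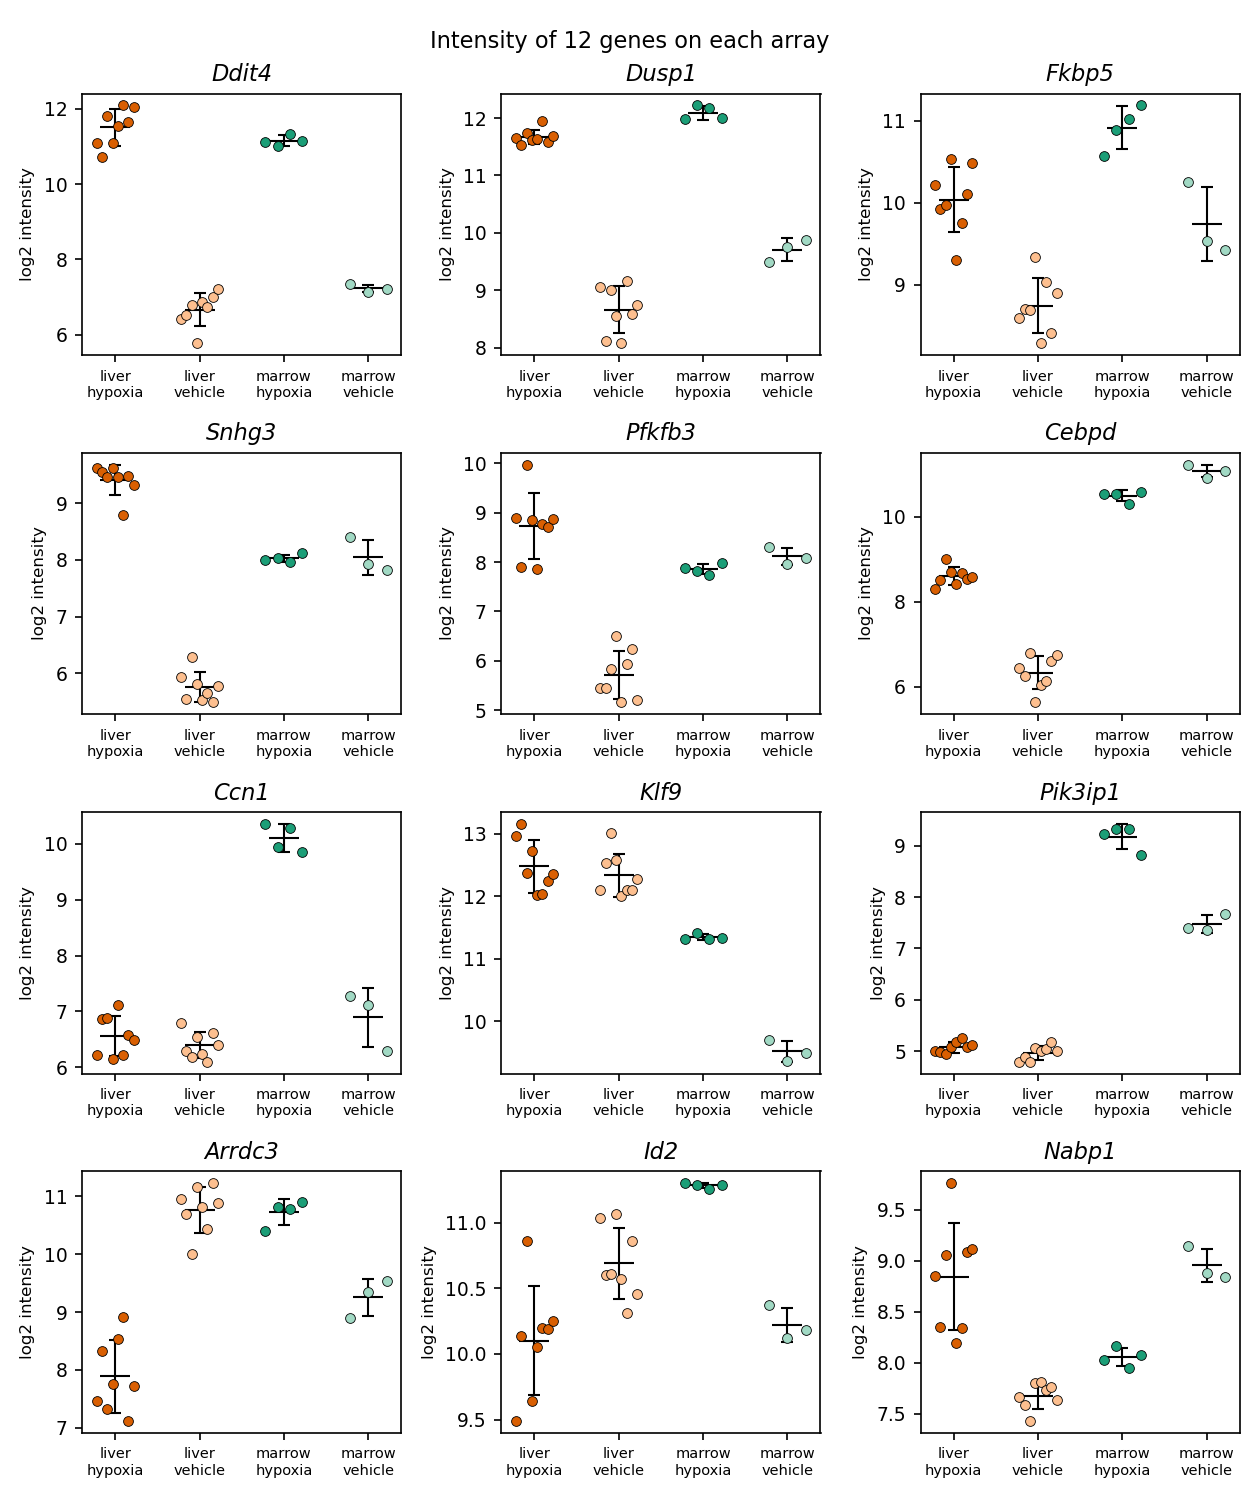
Log2 intensity of 12 genes on each array (points), with the mean and SD of each group (bars), in livers and bone marrows under hypoxia and vehicle; n = 8, 8, 4 and 3. The top row rose in both tissues, the second row in liver, the third row in marrow, and in the bottom row the changes had opposite directions, as for Arrdc3 with -2.88 in liver and 1.47 in marrow.

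The direction itself was opposite in 7 genes with the pooled spread. Arrdc3, an arrestin-domain protein of receptor traffic, was 7.12, 7.73 and 8.91 at the lowest, median and highest in hypoxic livers, against 10.01, 10.85 and 11.23 in vehicle livers. Bone marrows held 10.40, 10.81, 10.79 and 10.91 under hypoxia and 8.90, 9.34 and 9.53 under vehicle. Neither tissue had overlapping groups. Arrdc3 fell by 2.88 ± 0.21 in liver and rose by 1.47 ± 0.32 in marrow. Its difference of -4.35 ± 0.38 (adjusted p = 8e-08) was the largest in size among the genes tested, and under every alternative it lay between -4.49 and -4.17.

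Id2, which blocks DNA binding by helix-loop-helix factors, was 11.30, 11.29, 11.26 and 11.29 in hypoxic marrows and 10.37, 10.12 and 10.18 in vehicle marrows, a rise of 1.06 ± 0.21. In liver it fell by 0.59 ± 0.14, with overlapping arrays at 9.49 to 10.86 under hypoxia and 10.31 to 11.07 under vehicle. Nabp1, a single-stranded DNA binding protein, went the other way. It was 8.19 to 9.76 in hypoxic livers (median 8.96) and 7.43 to 7.81 in vehicle livers (median 7.70), a rise of 1.17 ± 0.15. Marrows held 8.03, 8.16, 7.95 and 8.08 under hypoxia and 9.14, 8.88 and 8.84 under vehicle, a fall of 0.90 ± 0.23. Its 6 probe sets gave differences of 1.77 to 2.56.

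Smaller opposite changes were those of Itprip (0.43 ± 0.06 in liver, -0.53 ± 0.10 in marrow), Ints12 (0.36 ± 0.08 and -0.56 ± 0.12), Fxyd1 (-0.20 ± 0.07 and 0.37 ± 0.10) and Serpinf1 (-0.19 ± 0.07 and 0.48 ± 0.10). Itprip modulates inositol trisphosphate receptors and Ints12 is a subunit of the Integrator complex, while Fxyd1 regulates the sodium pump and Serpinf1 encodes a secreted serpin. The Ints12 difference of 0.92 ± 0.15 became 0.55 over the mean of its probe sets, where it was not called (adjusted p = 0.0521), and that of Itprip, 0.97 ± 0.12, became 0.63. The Fxyd1 difference of -0.57 ± 0.12 was -0.42 without marrow vehicle replicate 1 and not called (adjusted p = 0.0597). In a fit of all 39 arrays it was not called either (adjusted p = 0.10).

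Among falls in liver, Phlda1, a pleckstrin-homology protein, had hypoxic livers at 7.30 to 8.32 (median 7.80), below all vehicle livers at 8.72 to 10.64 (median 10.29). Marrows held 8.08, 8.35, 8.30 and 8.57 under hypoxia and 7.92, 7.88 and 8.18 under vehicle. It fell by 2.22 ± 0.22 in liver, changed by 0.33 ± 0.34 in marrow and had a difference of -2.55 ± 0.40. Osgin1, a growth inhibitor responsive to oxidative stress, fell by 2.11 ± 0.18 in liver and changed by -0.11 ± 0.27 in marrow. Id3, a relative of Id2, fell by 1.63 ± 0.14 in liver against 0.10 ± 0.22 in marrow. The pro-apoptotic gene Bmf fell by 1.29 ± 0.19 in liver, its marrow change of 0.99 ± 0.30 was not called, and its difference of -2.29 ± 0.35 was -0.97 over the mean of its probe sets. Its hypoxic livers, at 3.98 to 4.71, lay under the liver dim cutoff of 4.9. Its other probe sets, brighter in liver, changed there by only -0.19 and -0.22. For the homeobox factor Hhex the liver fall of 1.74 ± 0.23 and the difference of -1.78 ± 0.42 were called, but the difference was not without marrow vehicle replicate 1 (-1.74, adjusted p = 0.077) or 2 (-1.71, adjusted p = 0.0728).

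Of the 7 genes that changed the same way but by a different size, Sgk1, a kinase of salt transport, rose more in liver, by 2.23 ± 0.11 against 0.88 ± 0.16 in marrow. Per1, a clock gene that glucocorticoids induce, rose more in marrow. It was 9.45, 9.62, 9.67 and 10.03 in hypoxic and 7.16, 7.00 and 6.74 in vehicle marrows, and 7.63 to 8.43 in hypoxic and 6.07 to 7.74 in vehicle livers, which overlapped. The rises were 1.29 ± 0.17 in liver and 2.72 ± 0.26 in marrow, and the difference was -1.44 ± 0.32 (adjusted p = 0.0116). With liver replicates 1 to 4 alone it was -1.09 and not called (adjusted p = 0.0909). Errfi1, a feedback inhibitor of the EGF receptor, rose by 0.46 ± 0.11 in liver and 2.05 ± 0.16 in marrow. A dimmer Errfi1 probe set changed by 0.65 in liver and 1.30 in marrow, a smaller difference of -0.65 ± 0.27. Snai2, Thap2 and Nemp1 fell more in marrow, and Zfp866 fell more in liver.

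In 17 lists of response genes the counts differed widely. The lists were chosen with earlier results of these data known, and some genes stand in several lists. Shares set beside those of all genes are therefore descriptions and no independent support. Of the 31 glucocorticoid-responsive genes tested, 12 had a called difference (38.7%, against 2.66% of all genes), 7 higher in liver and 5 lower. The higher ones were Gadd45g, Cebpd, the cell cycle inhibitor Cdkn1a, the mRNA decay factor Zfp36, Sgk1, Arrdc2 and Snai2, which had fallen in both tissues. The lower ones were Klf9, Zbtb16, Errfi1, Per1 and Tsc22d3. With the pooled spread 18 members rose and 2 fell in liver, while 14 rose and 1 fell in marrow. Of all genes tested, 5.58% rose and 10.7% fell in liver, and 0.855% rose and 1.18% fell in marrow. The median change was 0.60 in liver and 0.69 in marrow, and the median difference was 0.12, against -0.02 over all genes tested. Members thus split between the tissues, with called differences on both sides of 0.

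With the pooled spread, 22 of 41 tested HIF targets rose in liver (5.58% of all genes did), 5 rose in marrow (0.855% of all genes) and none fell in either. The difference was called for 4 (9.76%, against 2.66% of all genes), all higher in liver, namely Pfkfb3, Tfrc, Kdm3a and Ero1a. Kdm3a, an oxygen-dependent histone demethylase, rose by 1.12 ± 0.11 in liver against 0.24 ± 0.18 in marrow, and its difference of 0.88 ± 0.21 was not called without marrow vehicle replicate 2 (0.85, adjusted p = 0.0722) or 3 (0.84, adjusted p = 0.0589). Ero1a, an oxidase of protein folding, had a difference of 0.99 ± 0.27 that stood at the threshold (adjusted p = 0.046) and was not called under 19 of 38 alternatives, where the adjusted p reached 0.23. The 5 targets that rose in marrow were Ddit4, Ppp1r3c, Bnip3, the vasodilator peptide gene Adm and the nuclear receptor gene Rora. With array weights per tissue, the marrow rises of Ankrd37 (adjusted p = 0.000247), Pdk1 (0.000827), Egln3 (0.0132) and Angptl4 (0.0145) were called too. The liver rise of Hmox1 was then not called (adjusted p = 0.133). The counts thus depended on the model of the spread.

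None of the textbook HIF targets tested had a called difference in the main fit. Ddit4 gained the call under the 4 alternatives given above. Vegfa gained it with array weights per tissue (0.54, adjusted p = 0.0298) and Pdk1 with liver replicates 5 to 8 alone (-0.64, adjusted p = 0.00824). Vegfa, the vascular growth factor, was 8.81 to 9.54 in hypoxic and 8.08 to 8.88 in vehicle livers, and 7.87, 7.78, 7.74 and 7.74 in hypoxic against 7.87, 7.63 and 7.51 in vehicle marrows. It rose by 0.66 ± 0.11 in liver and changed by 0.12 ± 0.16 in marrow, with a difference of 0.54 ± 0.20 that was not called (adjusted p = 0.163). The mitophagy gene Bnip3 rose by 0.70 ± 0.12 in liver and 0.77 ± 0.18 in marrow. Ankrd37, an ankyrin-repeat protein, rose by 2.71 ± 0.29 in liver. Its marrow arrays stood apart, at 7.14, 6.87, 7.04 and 7.16 under hypoxia and 5.15, 5.48 and 5.89 under vehicle, but the change of 1.55 ± 0.44 was not called (adjusted p = 0.0775), nor was the difference of 1.17 ± 0.53.

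The glucose transporter Slc2a1 rose by 0.99 ± 0.20 in liver against 0.27 ± 0.30 in marrow, and the difference of 0.73 ± 0.36 was not called. Pdk1, which keeps pyruvate from the mitochondria, changed by 0.18 ± 0.11 and 0.56 ± 0.17, and the oxygen sensor Egln3 by 0.11 ± 0.13 and 0.51 ± 0.20. In the main fit neither had a call in either tissue or in the difference. Another Egln3 probe set changed by 0.58 in liver and 0.34 in marrow. Its difference of 0.24 ± 0.25 had the opposite sign to the -0.40 ± 0.24 of the brighter one. Hmox1, which degrades heme, rose by 1.08 ± 0.33 in liver, where replicate 3 was at 10.12 against a group median of 7.79, and changed by 0.05 ± 0.50 in marrow. Angptl4, an inhibitor of lipoprotein lipase, had no called change with the probe set of highest mean, but a dimmer probe set of the gene changed by 3.28 in liver and 0.78 in marrow. Igfbp1, a binding protein of insulin-like growth factors that the liver secretes, was 13.85 to 14.28 in hypoxic and 10.36 to 11.72 in vehicle livers. In marrow it lay at 3.71 to 4.19, under the marrow dim cutoff of 5.58, so no difference was tested.

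**Figure D3:**
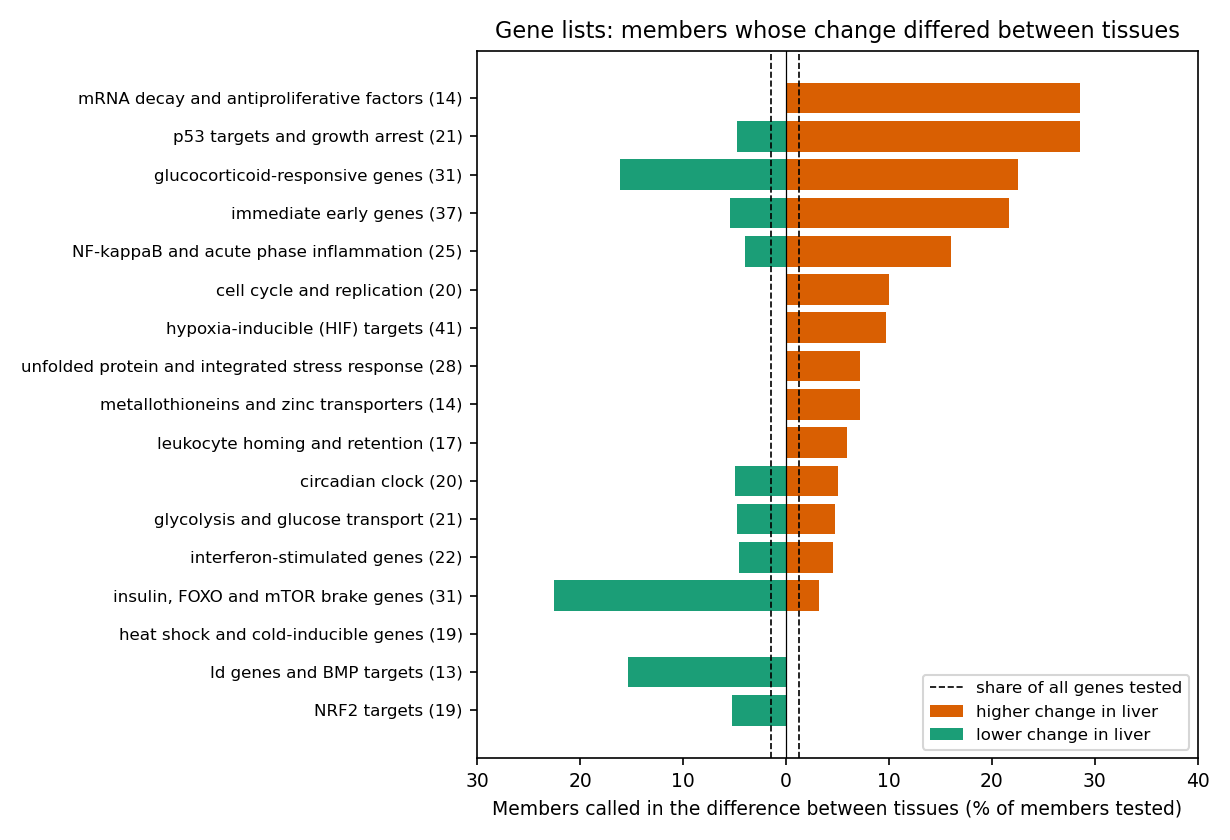
Members with a called difference as a percent of the members tested (horizontal axis) in 17 gene lists, with the number tested in brackets; orange bars count members with a higher change in liver, green bars those with a lower one. Dashed lines mark the shares over all genes tested (1.23% higher, 1.43% lower). The glucocorticoid list has bars on both sides, the list of insulin, FOXO and mTOR brake genes lies mainly to the left, and the heat shock list has no called member.

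Immediate early genes had called differences for 10 of 37 (27%, against 2.66% of all genes), 8 higher in liver and 2 lower. The higher ones were Btg2, Ier3, Jun, Gadd45b, the kinase gene Plk3, the small Maf factor Maff, Zfp36 and Csrnp1, and the lower ones were Ccn1 and Egr1. With the pooled spread 22 members rose and 1 fell in liver, against 5.58% and 10.7% of all genes. In marrow 5 rose and 1 fell, against 0.855% and 1.18%. Array weights per tissue also called the marrow rises of Jun (adjusted p = 0.00197) and Egr1 (0.0018). Gadd45b, a stress sensor related to Gadd45g, rose by 1.82 ± 0.14 in liver against -0.33 ± 0.21 in marrow. The zinc finger factor Egr1 had a difference of -2.46 ± 0.64 (adjusted p = 0.0372), with neither tissue change called under the pooled spread. The difference lost the call under 13 of 38 alternatives, where the adjusted p reached 0.14.

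Of 21 p53 targets and growth-arrest genes, 7 had a called difference (33.3%, against 2.66% of all genes), 6 higher in liver and the pro-apoptotic gene Bbc3 lower. Trp53inp1, a stress-induced cofactor of p53, rose by 2.42 ± 0.12 in liver and its marrow change of 0.54 ± 0.19 was not called, giving a difference of 1.88 ± 0.23. Cdkn1a, the p21 inhibitor of cell division, rose by 2.92 ± 0.27 in liver against 0.87 ± 0.41 in marrow. With the pooled spread no member of the list was called in marrow (2.04% of all genes were). In a list of 21 genes that is close to the share over all genes. Array weights per tissue called the marrow rise of Trp53inp1 (adjusted p = 0.00527). Several genes of this list stand in more than 1 list. Among 14 mRNA decay and antiproliferative genes 4 differences were called (28.6%, against 2.66% of all genes). They were those of Btg2, Noct, Tob2 and Zfp36, all higher in liver (1.23% of all genes were). With the pooled spread no member was called in marrow, where 2.04% of all genes were, which for 14 genes is close to that share. Array weights per tissue called the marrow fall of Tob2 (adjusted p = 0.0186). Tob2, which recruits a deadenylase, rose by 0.96 ± 0.13 in liver against -0.43 ± 0.20, but its difference of 1.39 ± 0.24 was 0.85 over the mean of its probe sets, and 0.52 and not called (adjusted p = 0.12) with probe sets designed for 1 transcript.

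The list of 31 insulin, FOXO and mTOR brake genes ran the other way, with 1 difference higher in liver and 7 lower (25.8% called, against 1.23% higher and 1.43% lower over all genes). Besides Arrdc3, Phlda1, Pik3ip1 and Tsc22d3 the lower ones were Deptor, an inhibitor of mTOR (-0.57 ± 0.13 in liver, 0.42 ± 0.21 in marrow), the insulin receptor substrate Irs1 (-1.08 ± 0.12 and -0.20 ± 0.19) and the translation repressor Eif4ebp2 (-0.28 ± 0.06 and 0.20 ± 0.10). The higher one was Arrdc2, a relative of Arrdc3, at 1.22 ± 0.14 in liver and 0.01 ± 0.22 in marrow. Arrdc2 and Arrdc3 thus had called differences of opposite sign, 1.21 ± 0.26 and -4.35 ± 0.38. In liver 9 members of the list rose and 8 fell, against 5.58% and 10.7% of all genes. In marrow 6 rose and none fell, against 0.855% and 1.18%.

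**Figure D4:**
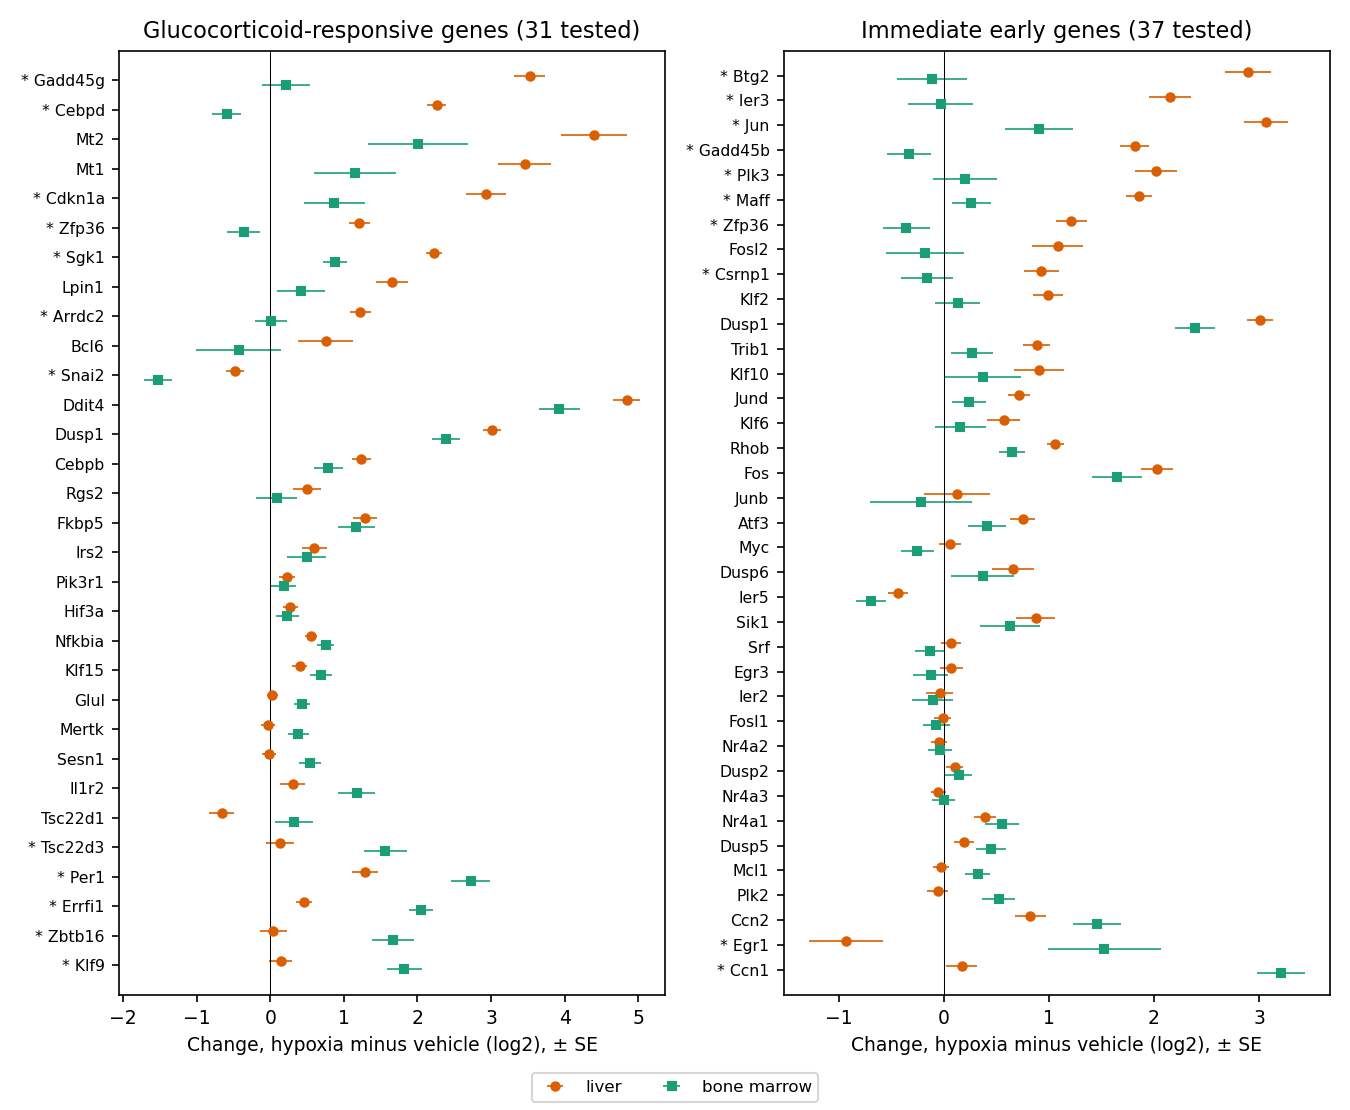
Change under hypoxia (log2 hypoxia minus vehicle, ± SE, horizontal axis) in liver (orange circles) and bone marrow (green squares) for the 31 glucocorticoid-responsive and 37 immediate early genes tested, ordered by the difference between the tissues; stars mark called differences. Gadd45g (3.52 in liver, 0.21 in marrow) and Btg2 (2.90 and -0.12) lie at the top, and Klf9 (0.14 and 1.82) and Ccn1 (0.17 and 3.21) at the bottom.

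The 25 tested inflammation genes had 4 differences higher and 1 lower (20% called, against 2.66% of all genes). The adhesion molecule Vcam1 rose by 1.97 ± 0.17 in liver against 0.20 ± 0.26 in marrow, with a difference of 1.77 ± 0.31 that was 0.88 over the mean of its probe sets. Bcl3, Il1b, Tnf and Birc3 were the other 4, and for Bcl3, Il1b and Tnf no rise was called in liver. Bcl3, an atypical NF-kappaB inhibitor, had 1 hypoxic liver, replicate 3, at 10.04 against a group median of 8.48. Its difference of 1.68 ± 0.42 was not called without marrow vehicle replicate 1 (1.28, adjusted p = 0.196) or 2 (1.64, adjusted p = 0.0831), nor without marrow hypoxia replicate 3 (1.56, adjusted p = 0.0832) or 4 (1.62, adjusted p = 0.0694). The Birc3 difference of -0.99 ± 0.24 was not called without marrow vehicle replicate 1 (-1.03, adjusted p = 0.0535) or 2 (-0.93, adjusted p = 0.0799) or marrow hypoxia replicate 3 (-0.98, adjusted p = 0.0508). With probe sets designed for 1 transcript it was -0.54 and not called (adjusted p = 0.0889), and Il1b lost its call under 17 of 36 alternatives.

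Summed intensity of 13 mature neutrophil markers ranged from 551 to 15600 in hypoxic livers, against 504 to 1350 in vehicle livers, and was 195000 to 206000 in hypoxic and 202000 to 210000 in vehicle marrows. Hypoxic liver replicate 3, which stood out for Bcl3 and Hmox1, was among the high ones at 15296. The median log2 intensity of the 13 markers overlapped between the liver groups, at 4.83 to 5.51 under hypoxia and 4.75 to 5.31 under vehicle. Of the 9 markers tested, 3 rose in liver (5.58% of all genes did), so the sums do not speak for every marker. The part of neutrophil RNA in the liver changes was not tested.

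**Figure D5:**
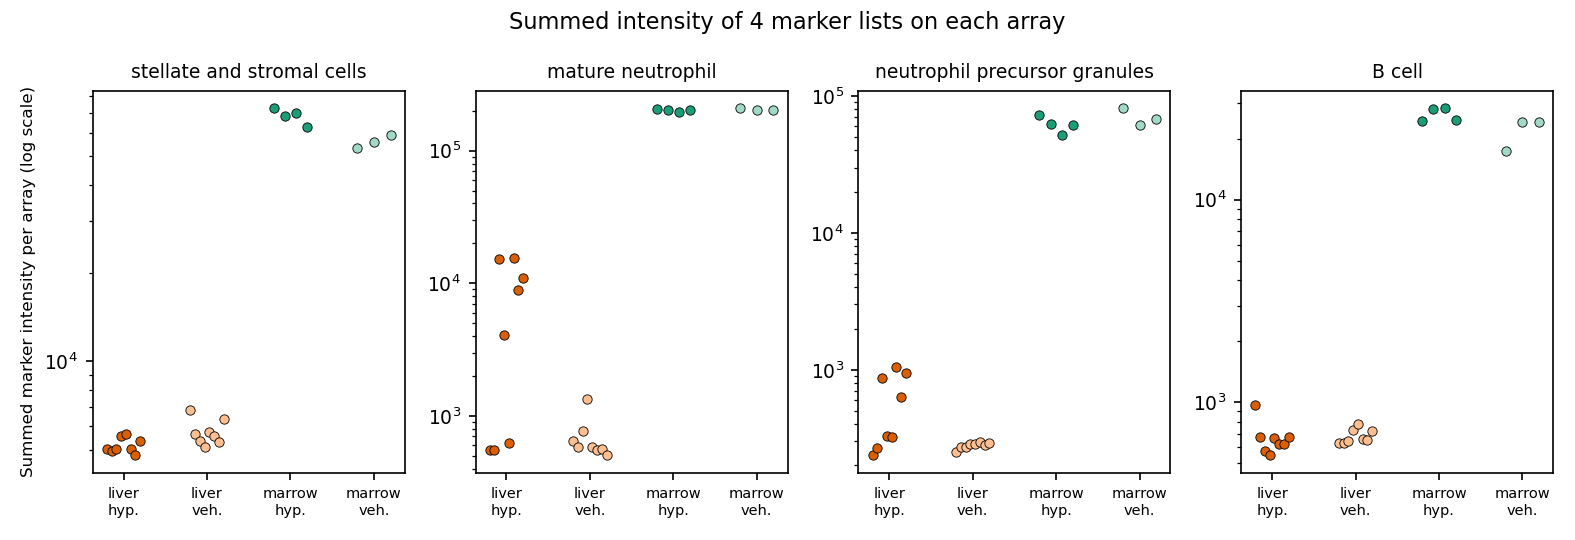
Summed linear intensity (log axis) of 4 marker lists on each array, in livers and bone marrows under hypoxia and vehicle. Stromal sums in marrow are higher under hypoxia (62900 to 73100) than under vehicle (53100 to 59300), and mature neutrophil sums in hypoxic livers spread from 551 to 15600.

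The clock list of 20 genes had 2 called differences (10%, against 2.66% of all genes), Noct and Per1, in opposite directions. Of 22 interferon-stimulated genes, 9.09% had a called difference, against 2.66% of all genes. Usp18, a protease that dampens interferon signalling, had a higher change in liver (0.97 ± 0.12 against -0.62 ± 0.19 in marrow). The transcription factor Irf1 had a lower one (-1.23 ± 0.09 against -0.40 ± 0.13). Rrm2, a subunit of ribonucleotide reductase, rose by 2.18 ± 0.18 in liver and changed by 0.21 ± 0.27 in marrow. The mitotic kinase Plk1 fell in marrow, by 0.80 ± 0.11, against -0.01 ± 0.07 in liver, but in a fit of all 39 arrays its difference was not called (adjusted p = 0.27). Chac1, which degrades glutathione in the integrated stress response, rose by 1.29 ± 0.18 in liver against -0.09 ± 0.28. Its difference of 1.38 ± 0.33 was not called without marrow vehicle replicate 1 (1.34, adjusted p = 0.0801) or marrow hypoxia replicate 3 (1.35, adjusted p = 0.0514).

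The zinc transporter Slc39a14 rose by 1.18 ± 0.16 in liver against -0.04 ± 0.24, and its difference of 1.22 was not called without marrow vehicle replicate 1 (1.04, adjusted p = 0.115) or over the mean of its probe sets (1.10, adjusted p = 0.0543). Metallothioneins Mt1 and Mt2 rose in liver by 3.45 ± 0.37 and 4.40 ± 0.45. Their marrow changes of 1.15 ± 0.56 and 2.01 ± 0.68 and their differences of 2.30 ± 0.67 and 2.39 ± 0.81 were not called. Cirbp, a cold-inducible RNA-binding protein, rose by 1.04 ± 0.16 in liver and 1.86 ± 0.24 in marrow, with a difference of -0.82 ± 0.29 that did not pass, and none of the 19 heat shock and cold-inducible genes had a called difference. With 2.66% of all genes called, the remaining lists had 2 called of 13 Id and BMP genes (Id2 and Id3), 1 of 19 NRF2 targets (Osgin1), 1 of 17 homing genes (Vcam1), 2 of 21 glycolysis genes (Pfkfb3 and Pfkm), 2 of 20 cell cycle genes (Rrm2 and Plk1) and 2 of 28 unfolded protein and stress genes (Chac1 and Hsp90b1). Of these, neither Pfkm nor Hsp90b1 passed in either tissue on its own with the pooled spread. The Pfkm difference of -0.51 was not called in a fit of all 39 arrays (adjusted p = 0.47) or without marrow vehicle replicate 1 (-0.41, adjusted p = 0.0872), and that of Hsp90b1, 0.59, was not called under 7 of 37 alternatives, where the adjusted p reached 0.169.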

How the data were processed

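RNA of each sample was hybridised to 1 Affymetrix mouse array. The authors deposited linear intensity values per probe set, from 5.78 to 43830; RMA and limma are named without versions, per the submitters' processing notes. Array medians were 5.21 to 5.34 in liver and 6.22 to 6.29 in bone marrow (log2). Each tissue was therefore taken as normalized on its own. Levels set across tissues, those of hepatocyte markers and of vehicle arrays, are descriptions without a test. The number of arrays limits the precision.

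Intensities were turned into log2 with no offset. Of 45101 probe sets, 64 controls, 932 with several gene symbols and 9160 with none were left out; symbols came from the platform annotation, and a GRCm38.p6 gene table changed 0 of them. Each gene was represented by its probe set of highest mean over both tissues and tested where it reached the 30th percentile in each. The 23 arrays were fitted in 4 groups with limma 3.58.1 (two-sided, moderated by eBayes) under R 4.3.3, with Benjamini-Hochberg adjustment over 11348 genes. On simulated data the test recovered 36% of differences of 0.5, 86% of 1 and 100% of 2 and 3, with 3 false calls among 11348 genes.

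Named genes were the 12 largest positive and 12 largest negative differences, 6 opposite, 8 marrow-only and 8 shared changes, up to 4 called members per list and 10 textbook HIF targets, passing over predicted genes. Other genes named from lists, and Serpinf1, Thap2, Nemp1 and Zfp866, were chosen after their values were seen. Members, 17 response lists and 12 marker lists (608 of 659 members matched a probe set) were chosen with earlier results of these data known, and lists were described by counts, without a test.

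Groups share replicate numbers in the labels. Same-number liver arrays deviated together (correlations 0.171 to 0.547, mean 0.325, against 0.285 for other numbers of the same set), which pairs them by the rule used; in marrow the correlations were -0.0156 to 0.343. Alternatives covered the arrays fitted, spread, normalization, centring, offset, probe sets, dim filter, variance prior, liver set, pairing and leaving out each array.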

Additional observations from a re-analysis of the deposited data

Results flagged for a closer look

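The difference between the tissues was itself tested and called for 140 genes with a higher and 162 with a lower change in liver. Of the named genes, those with a higher change in liver were Snhg3 (3.69), Gadd45g (3.31), Pfkfb3 (3.26), Noct (3.25), Btg2 (3.01), Cebpd (2.85), Alas1 (2.60), Tcim (2.45), Tfrc (2.42), Ier3 (2.18), Jun (2.16), Slc38a2 (2.15), Gadd45b (2.15), Nabp1 (2.07), Rrm2 (1.98), Trp53inp1 (1.88), Vcam1 (1.77), Bcl3 (1.68), Usp18 (1.60), Maff (1.60), Zfp36 (1.57), Tob2 (1.39), Chac1 (1.38), Sgk1 (1.34), Slc39a14 (1.22), Arrdc2 (1.21), Ero1a (0.99), Itprip (0.97), Ints12 (0.92), Kdm3a (0.88), Il1b (0.85), Plk1 (0.78) and Hsp90b1 (0.59). Those with a lower change in liver were Pfkm (-0.51), Fxyd1 (-0.57), Irf1 (-0.83), Sult1a1 (-0.83), Pmp22 (-0.90), Birc3 (-0.99), Abhd15 (-1.24), Tsc22d3 (-1.43), Per1 (-1.44), Pik3ip1 (-1.59), Errfi1 (-1.60), Zbtb16 (-1.63), Id2 (-1.65), Klf9 (-1.68), Id3 (-1.72), Hhex (-1.78), Osgin1 (-2.0), Bmf (-2.29), Egr1 (-2.46), Phlda1 (-2.55), Ccn1 (-3.04) and Arrdc3 (-4.35). Each value is the log2 change in liver minus that in bone marrow.

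Single arrays stood far from the rest of their group in 9 of 216 groups checked, and about 1 in 20 groups would be found by chance. In hypoxic livers these were Snhg3 in replicate 6 (8.79), Id3 in replicate 3 (7.84), Bcl3 in replicate 3 (10.04), Hmox1 in replicate 3 (10.12) and Rrm2 in replicate 5 (7.07). In vehicle livers they were Bmf in replicate 4 (7.08), Gadd45b in replicate 5 (7.14) and Rrm2 in replicate 4 (6.85). The hypoxic marrow of replicate 1 had Tcim at 6.56, against 6.58 in the other marrows of its group.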

How the results depend on the processing

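In 15 other settings and 23 fits without 1 array, the called differences numbered at least 142. Counts moved by over 1.5 times, with differences first (higher and lower) and marrow calls after, under array weights per tissue (844, 404 and 440, marrow 1386), quantile normalization of all arrays (513, 226 and 287, marrow 413), the liver set as a term (708, 303 and 405, marrow 483, liver 2943), liver replicates 1 to 4 (514, 249 and 265, marrow 348) and replicates 5 to 8 (869, 355 and 514, marrow 842). The replicate block gave 470 differences, 226 higher and 244 lower, and among the named genes changed the call of Ddit4 alone. Marrow calls also moved with the dim filter, to 367 where either tissue had to pass, 376 with no filter and 147 at the 50th percentile. Leaving out 1 array gave 142 to 353 differences, 69 to 176 higher, 73 to 191 lower, 1524 to 2024 liver calls and 103 to 249 marrow calls. The lowest counts came without marrow vehicle replicate 1, and without marrow hypoxia replicate 2 the marrow calls numbered 134. Array weights, which let the tissues differ in spread (median residual SD 0.194 in liver and 0.101 in marrow), called all 302 genes. For the other moves the cause was not tested. Of the values of named genes, 2557 kept their direction and side of the threshold, 90 lost the call, 8 gained it and 8 turned sign. The signs that turned were all of uncalled differences: Dusp1 (-0.0844) and Fkbp5 (-0.18) under quantile normalization, Fkbp5 (-0.14 to 0.27 when 1 array was left out, negative without marrow vehicle replicate 1), Fos (-0.10) with 16 added, Angptl4 (1.06) over the mean of probe sets, Thrsp (-0.0702) with liver replicates 5 to 8, and Bnip3 (0.0151) with the replicate block and without marrow hypoxia replicate 4.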

Other observations

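Some genes could be followed in liver alone, since 1387 genes passed the dim cutoff there and not in bone marrow. Among them Igfbp1 averaged 14.07 ± 0.13 in hypoxic and 11.14 ± 0.54 in vehicle livers, and Mfsd2a, a lipid transporter, 9.25 ± 0.81 and 6.75 ± 0.64. The pioneer factor gene Foxa1 averaged 6.33 ± 0.21 in hypoxic and 8.26 ± 0.34 in vehicle livers, and the lipid droplet gene Plin4 7.53 ± 0.48 and 5.44 ± 0.34 (SD, n = 8 each). The hypoxic and vehicle livers did not overlap for these 4 genes, which held for 2.9% of the genes tested in both tissues. The 4 were chosen after their values were seen and could not be tested for a difference.

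Genes also differed in where they stood before hypoxia. With levels centred on the median of the tested genes in each tissue, 43.4% of the 11348 genes were higher in vehicle marrow than in vehicle liver. That share was 61.4% for the 101 genes that rose in liver with a called higher difference, and 60% for the 492 that rose in liver with no other call. It was 25.8% for the 31 genes that rose in marrow alone with a called difference and 25% for the 112 that fell in liver with a called lower difference. The vehicle arrays enter both the level and the change, and each tissue was taken as normalized on its own, so these shares are a description and carry no test.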
